A study of Mus musculus with 6 samples.

Results

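The Nfe2l2 (Nrf2) pathway and glutathione synthesis genes examined here were 10 named genes of a table of 32285, namely Nfe2l2, Keap1, Hmox1, Nqo1, Slc7a11, Gclc, Gclm, Gsr, Txnrd1 and Srxn1. They were taken from the table by symbol, and all 10 passed the filter on low counts that left 15104 genes for testing. The libraries came from germline stem (GS) cells, cultured mouse spermatogonia with stem cell activity that were grown on a feeder layer of mouse embryonic fibroblasts. All cells were of DBA/2 strain and genotype DBA/Tg14(act-EGFP-OsbY01), from testes of mice 2 to 3 days old, and all had been frozen for 6 months. The 3 Space libraries came from cells kept frozen on the International Space Station (ISS) and the 3 Ground libraries from cells kept frozen on Earth, and RNA was taken the day after thawing, before any passage. Groups follow the library titles. The treatment label of each library states the opposite of its title, so each direction below would be inverted if that label were the correct one. The study describes the replicates as lines, but no label ties a library to a line or culture, so p-values measure the spread between these libraries, which may be technical.

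Nfe2l2 encodes the transcription factor Nrf2, which in resting cells is bound by the adaptor Keap1 and degraded. Oxidants and electrophiles modify Keap1, and Nrf2 then accumulates and, with small Maf proteins, binds antioxidant response elements at its target genes. The pathway is therefore controlled largely at the level of protein, which RNA-seq does not measure. Its target genes supply glutathione, recycle thioredoxin and peroxiredoxins, and clear haem and quinones. Freezing and thawing is a known oxidative load on cells.

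The core of the antioxidant response element, TGACNNNGC, was searched on both strands of the RefSeq promoter windows (GRCm38.p6, 250 bases before to 50 after a gene start). These windows were matched by symbol for 7 of the 10 genes, with 9 windows because Txnrd1 has 3. The core occurred in the windows of 4 genes (4 of 9 windows) and in 12.39% of all 32851 windows. The 4 sites are shown, 5′ to 3′ on the strand of the gene with the core in capitals, because they are the sequence that Nrf2 binding is described for. They lay at chr2:75704885-75704913 (Nfe2l2, minus strand, core 231 bases before the start), chr3:122245413-122245441 (Gclm, plus strand, 125 bases before), chr10:82859104-82859132 (the second start of Txnrd1, plus strand, 83 bases before) and chr2:152105542-152105570 (Srxn1, plus strand, 28 bases after). In Gclm, Txnrd1 and Srxn1 the core read on the opposite strand, so its reverse complement is in capitals.
Nfe2l2: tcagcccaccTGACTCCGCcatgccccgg
Gclm: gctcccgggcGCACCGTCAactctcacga
Txnrd1: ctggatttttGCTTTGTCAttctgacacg
Srxn1: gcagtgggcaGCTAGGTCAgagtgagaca
No match was found in the windows of Keap1, Nqo1 and Slc7a11, which says only that these letters are not in that stretch. Hmox1, Gclc and Gsr had no window.

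Libraries held 19015985 to 24110916 counts. Values are CPM, the usual depth-scaled counts, with library sizes adjusted by TMM (the trimmed mean of M-values, a factor that offsets differences in library makeup), and 3 counts correspond to 0.12 to 0.16 CPM. All 13 spermatogonial markers checked (such as Ddx4, Dazl, Zbtb16 and Gfra1) were detected, with a summed level of 2982 to 3446 CPM in Ground and 3074 to 3462 CPM in Space. The 32 feeder fibroblast markers summed to 1286 to 1341 CPM in Ground. In Space-1, Space-2 and Space-3 they summed to 984, 1319 and 1144 CPM, so Space-2 lay within the Ground range. Of their 31 tested genes 30 were lower in Space (median log2 fold change -0.33), with 0 past the threshold. The 12 macrophage markers summed to 14.8 to 23.8 CPM in Ground and 18.4 to 23.8 in Space, nearly all of it Cd68, with C1qa, C1qb and C1qc at 0 counts in every library. Endothelial markers (10 genes) summed to 58.7 to 73.4 and 57.2 to 69.4 CPM, Sertoli cell markers (6 genes) to 24.6 to 28.2 and 25.7 to 27.4 CPM, and Leydig cell markers (6 genes) to 4.45 to 5.04 and 4.16 to 4.56 CPM, with Hsd3b1 and Lhcgr at 0. Mitochondrially encoded genes took 2.51 to 11.5% of the counts, with the highest share of each group in Ground-2 and Space-2. In these bulk libraries, fewer cells of one type and less RNA per cell cannot be told apart.

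The 10 genes covered more than 3 orders of magnitude in level per exon length. Gsr was highest, with a mean of 88.3 CPM per kb of exon and 83.5 to 93.8 over the 6 libraries, which placed it at rank 377 of 15098 genes with a length. Gclc (59.7 CPM per kb, 52.1 to 67.5) and Hmox1 (59.0, 43.8 to 69.4) overlapped each other and lay above 95.4% and 95.3% of the genes tested. Txnrd1 (33.7, 30.7 to 37.3), Nfe2l2 itself (20.1, 19.2 to 20.96), Gclm (13.1, 11.9 to 15.2), Srxn1 (10.1, 8.79 to 10.9) and Keap1 (5.94, 5.52 to 6.41) followed without overlap between neighbours. Nqo1 (1.70, 1.13 to 2.17) and Slc7a11 (0.073, 0.028 to 0.13) were lowest, Slc7a11 at rank 14979. Transcripts of glutathione reductase and of the catalytic subunit of glutathione synthesis were thus abundant in these bulk libraries. Those of the cystine transporter gene and the quinone reductase gene Nqo1 were not. The share of feeder cells in these levels was not tested, and no library came from cells that had not been frozen.

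**Figure D1:**
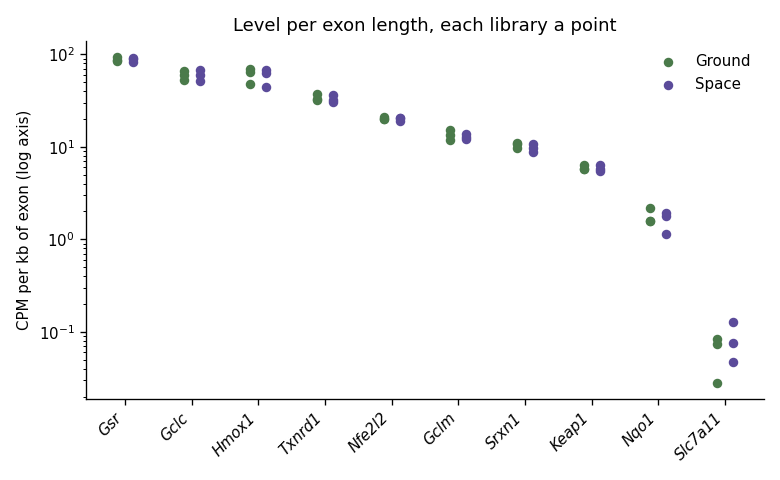
Level of each gene per exon length in each of the 6 libraries (CPM per kb of exon, log axis; green, Ground; purple, Space). The genes run from Gsr at a mean of 88.3 to Slc7a11 at 0.073 CPM per kb, and Gclc and Hmox1 are the only neighbours whose libraries overlap.

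To find genes that storage on the ISS induced or repressed, Space was compared with Ground over all genes. None of the 10 passed the test. With edgeR's quasi-likelihood test, 0 of 10 had an adjusted p under 0.05 and 0 of 10 an unadjusted p under 0.05. Of all genes 0% and 0.609% did so. If nothing differed, a share of 0.05 would be expected under the unadjusted threshold, so the p-values of this fit ran large. The reason was not tested, and the 95% intervals rest on the same fit. The adjusted p was 0.9999 for each of the 10 in edgeR, and DESeq2 and limma-voom called 0 of 10 at either threshold. In 0 of the 10 did the 3 libraries of one group all lie above those of the other, as they did in 3.59% of all genes (1.98% lower and 1.61% higher in Space). By sign alone 7 of 10 were lower in Space, against 51.3% of all genes, but 5 of 10 when libraries were scaled by total counts, where Nfe2l2 (0.015) and Keap1 (0.025) were higher in Space on the log2 scale. That scaling moved the median of all genes from -0.0020 to 0.033. The median log2 fold change of the 10 was -0.035, and 0.0013 with total counts, below the median of all genes in both scalings. All 95% intervals held 0. They were widest for Slc7a11, Nqo1 and Hmox1.

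**Figure D2:**
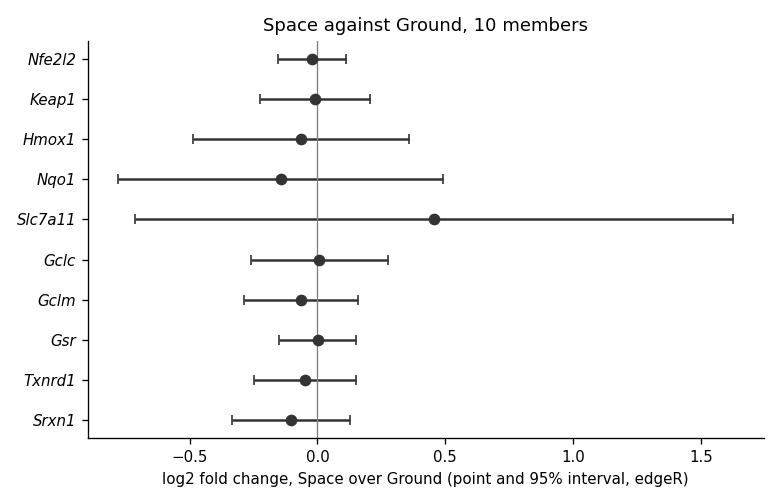
Log2 fold change of Space over Ground for the 10 genes (points) with the 95% interval from edgeR (bars), 3 libraries per group. Every interval crosses 0, and the widest belong to Slc7a11 (-0.72 to 1.63) and Nqo1 (-0.78 to 0.49).

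Nfe2l2 (ENSMUSG00000015839, mm10 chromosome 2, 75675513 to 75704641, minus strand) was the steadiest of the 10. Ground-1, Ground-2 and Ground-3 held 76.2, 75.1 and 79.6 CPM, and Space-1, Space-2 and Space-3 held 76.8, 73.0 and 77.6 CPM; values are listed in this library order throughout. The groups overlapped, and the highest library stood 1.09-fold above the lowest. Only 6.61% of all tested genes had a range over the libraries as small or smaller. The Ground mean was 76.9 ± 2.35 CPM and the Space mean 75.8 ± 2.46 CPM (SD, n = 3). These gave a log2 fold change of -0.021 (95% interval -0.16 to 0.11), so that changes beyond 0.90-fold to 1.08-fold lay outside the interval.

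Keap1 (ENSMUSG00000003308, chromosome 9, 21229730 to 21239361, minus strand), the substrate adaptor that holds Nrf2 for degradation, also varied little. It had 27.0, 26.9 and 30.0 CPM in Ground and 30.1, 27.3 and 25.9 CPM in Space. Ground-3 and Space-1 were the highest of their groups, and the groups overlapped. Its log2 fold change was -0.0094 (95% interval -0.23 to 0.21). Keap1 shares 510 exon bases with Gm16754 on the opposite strand, which had 1 to 7 counts per library against 506 to 731 for Keap1, and whether reads were counted by strand is not given in the sources used here. Per exon length, Nfe2l2 transcripts were 3.41 ± 0.11 times as abundant as Keap1 transcripts in Ground and 3.39 ± 0.28 times in Space (SD, n = 3), with overlapping ranges.

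Among the genes of glutathione supply, Slc7a11 (ENSMUSG00000027737, chromosome 3, 49892526 to 50443614, minus strand) encodes the light chain of the cystine importer. It had 25, 22 and 9 counts in Ground and 16, 20 and 45 counts in Space, or 1.03, 1.17 and 0.395 CPM and 0.659, 1.07 and 1.80 CPM. Space-3 was the highest and Ground-3 the lowest library, a 4.56-fold range, and the groups overlapped. The exact 95% Poisson intervals of those 2 libraries, 1.31 to 2.41 and 0.180 to 0.749 CPM, did not overlap, and they cover counting error only. Because the 2 were picked as the extremes, such a gap is more likely than for a pair fixed beforehand. The log2 fold change was 0.46 (95% interval -0.72 to 1.63), or 0.61-fold to 3.09-fold. Without Space-3 the log2 fold change was -0.010. The exon length of Slc7a11 in the annotation, 13922 bases, is the longest of the 10 and lowers its level per length. Its partner Slc3a2, the heavy chain that serves several amino acid transporters, was abundant, with a Ground mean of 249 ± 14.2 CPM and a Space mean of 239 ± 16.6 CPM (SD, n = 3).

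Gclc and Gclm encode the catalytic and the modifier subunit of glutamate-cysteine ligase, the rate-limiting enzyme of glutathione synthesis. Gclc (ENSMUSG00000032350, chromosome 9, 77754535 to 77794485, plus strand) had 197, 227 and 249 CPM in Ground and 254, 226 and 196 CPM in Space. Each Ground value thus had a Space value within 5 CPM of it, Ground-1 lying next to Space-3, Ground-2 next to Space-2 and Ground-3 next to Space-1. The group means of 224 ± 26.4 and 225 ± 29.0 CPM (SD, n = 3) gave a log2 fold change of 0.0073 (95% interval -0.26 to 0.27).

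Gclm (ENSMUSG00000028124, chromosome 3, 122245557 to 122270732, plus strand) had 74.6, 95.4 and 83.8 CPM in Ground and 79.7, 86.1 and 76.7 CPM in Space. Ground-2 and Space-2 were the highest of their groups, and the groups overlapped. These are also the libraries with the highest mitochondrial share, whose part in the level was not tested. The log2 fold change was -0.066 (95% interval -0.29 to 0.16), and it was 0.029 without Ground-2. Gclm shares 296 exon bases with Gm17494 on the opposite strand, which had 42 to 77 counts per library against 1615 to 1935 for Gclm. It also shares 244 exon bases with Gm6061, a pseudogene on the same strand for which no counts were given. Per exon length, Gclc transcripts outnumbered Gclm transcripts 4.45 ± 0.50 times in Ground and 4.66 ± 0.58 times in Space (SD, n = 3), from 3.97 in Ground-2 to 5.33 in Space-1.

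Gsr (ENSMUSG00000031584, chromosome 8, 33652523 to 33698163, plus strand) encodes glutathione reductase, which returns oxidised glutathione to its reduced form with NADPH. It had 232, 258 and 239.5 CPM in Ground and 247, 253 and 229.9 CPM in Space, and again Ground-2 and Space-2 were the highest of their groups, which overlapped. The means were 243 ± 13.6 and 243 ± 11.9 CPM (SD, n = 3), with a log2 fold change of 0.00083 (95% interval -0.15 to 0.15).

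Txnrd1 and Srxn1 belong to the thioredoxin branch. Txnrd1 (ENSMUSG00000020250, chromosome 10, 82833951 to 82897712, plus strand), the cytosolic thioredoxin reductase, had 229, 235 and 265 CPM in Ground and 259, 217 and 228 CPM in Space. Ground-3 and Space-1 were the highest libraries and lay within 6 CPM of each other, and the groups overlapped. The log2 fold change was -0.048 (95% interval -0.25 to 0.15). Without Space-1 the 2 remaining Space libraries lay below all 3 Ground libraries, as 11.7% of all genes did not overlap in that smaller comparison.

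Srxn1 (ENSMUSG00000032802, chromosome 2, 152105516 to 152111376, plus strand), which encodes sulfiredoxin, the enzyme that reactivates overoxidised peroxiredoxins, had 30.6, 30.5 and 27.4 CPM in Ground and 27.6, 24.8 and 30.0 CPM in Space. Space-2 was the lowest library, while Space-3 lay near Ground-1 and Ground-2, so the groups overlapped. The log2 fold change of -0.10 (SE 0.099, 95% interval -0.33 to 0.13) had the smallest p of the 10, with an unadjusted p of 0.327 in edgeR. Without Ground-3 the 2 remaining Ground libraries lay above all 3 Space libraries, where 11.7% of all genes did not overlap.

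Hmox1 (ENSMUSG00000005413, chromosome 8, 75093621 to 75100589, plus strand) encodes the inducible haem oxygenase and is widely used as a marker of oxidative stress. It had 121, 112 and 83.6 CPM in Ground and 76.7, 109 and 117 CPM in Space. Ground-3 and Space-1 were low, the other 4 libraries lay between 109 and 121 CPM, and the groups overlapped. The means of 106 ± 19.7 and 101 ± 21.4 CPM (SD, n = 3) gave a log2 fold change of -0.065 (95% interval -0.49 to 0.36), or 0.71-fold to 1.28-fold. Leaving out 1 library moved the log2 fold change to between -0.20 (without Ground-3) and 0.0998 (without Space-1).

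The low Hmox1 libraries, Ground-3 and Space-1, also had the lowest summed spermatogonial markers of their groups (2982 and 3074 CPM), but the 13 markers did not move together. In both libraries 5 of the 13 (Ddx4, Gfra1, Etv5, Bcl6b and Utf1) were at the lowest level of their group and 3 (Dazl, Sall4 and Mael) at the highest. Bcl6b, a GDNF-responsive factor, was at 59.1 and 57.6 CPM in Ground-3 and Space-1 against 218 to 371 CPM in the other 4, whereas Dazl, a germ cell RNA-binding protein, was at 947 and 964 CPM against 782 to 865 CPM. Their feeder marker sums were the highest (1341 CPM, Ground-3) and the lowest (984 CPM, Space-1) of the 6. Whether the makeup of the cultures set the Hmox1 level was not tested.

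Nqo1 (ENSMUSG00000003849, chromosome 8, 107388225 to 107403206, minus strand), which encodes the quinone reductase, is often used to read out Nrf2 activity but was weakly expressed. It had 60, 46 and 77 counts in Ground and 68, 56 and 44 counts in Space, or 2.47, 2.45 and 3.38 CPM and 2.80, 2.98 and 1.76 CPM. Space-3 was lowest and Ground-3 highest, with overlapping groups. Its log2 fold change was -0.14 (95% interval -0.78 to 0.49).

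**Figure D3:**
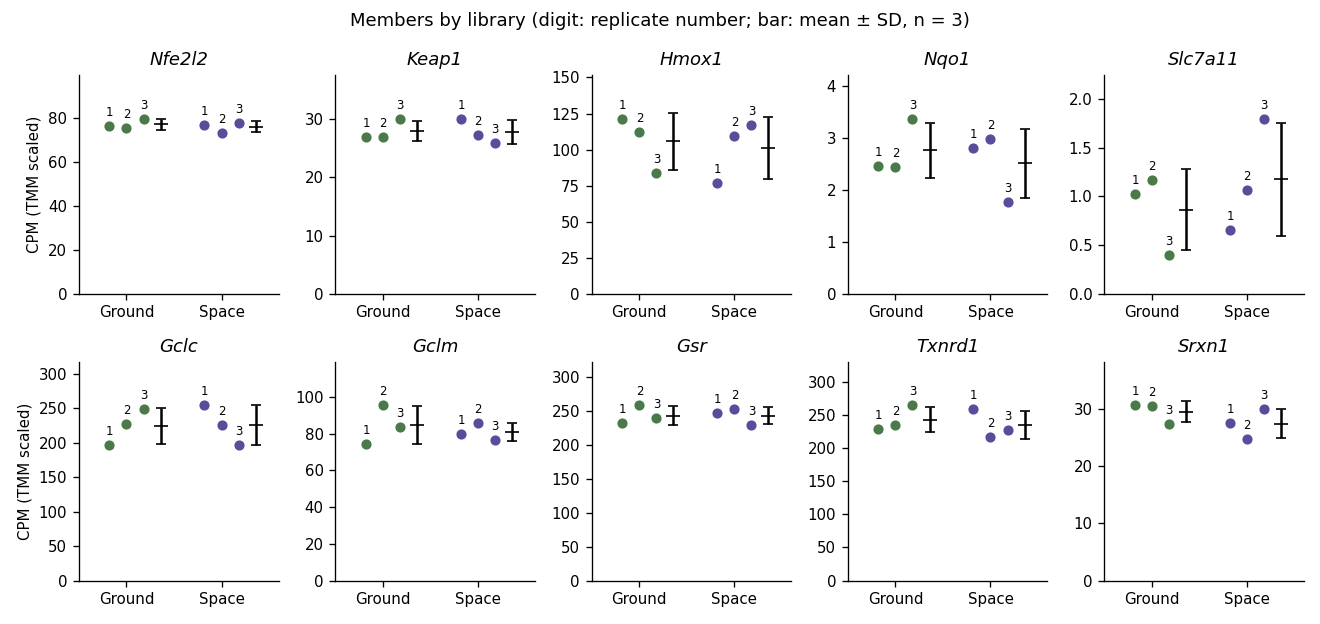
CPM of the 10 genes in each library (points, labelled with the replicate number) with the mean and SD of each group (bar, n = 3); each axis starts at 0. The Ground and Space points overlap in every panel, and Hmox1 is low in Ground-3 (83.6) and Space-1 (76.7).

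Library to library, the genes did not move in one direction. In Ground-3 and Space-1, Hmox1, Slc7a11 and Srxn1 were below and Gclc, Txnrd1, Keap1, Nqo1 and Nfe2l2 above their 6-library means. In Ground-1 and Space-3, Hmox1, Slc7a11 and Srxn1 were above and Gclc, Gclm, Gsr, Txnrd1, Keap1 and Nqo1 below. Several of these deviations were small on the log2 scale. Examples were Nfe2l2 in Space-1 (0.0093), Srxn1 in Ground-3 and Space-1 (-0.050 and -0.042) and Keap1 in Ground-1 (-0.045). Hmox1 and Gclc, both target genes of Nrf2 in many cell types, therefore ran in opposite directions in these 4 libraries, by 0.25 and -0.19 on the log2 scale in Ground-1 and by -0.41 and 0.18 in Space-1.

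**Figure D4:**
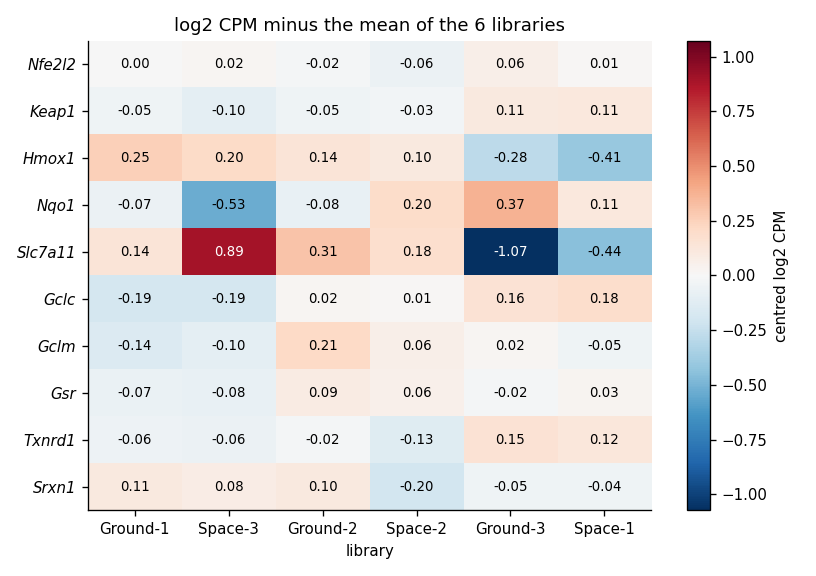
Log2 CPM of each gene (rows) in each library (columns) minus its mean over the 6 libraries, red above and blue below. Columns place Ground-1 beside Space-3, Ground-2 beside Space-2 and Ground-3 beside Space-1, an order chosen after the values were seen. Ground-1 and Ground-2, the most alike over the 10 genes, are not adjacent. Hmox1 is at 0.25 and 0.20 in Ground-1 and Space-3 and at -0.28 and -0.41 in Ground-3 and Space-1.

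Averaged over the 10 genes, the smallest absolute log2 differences between libraries were 0.11 for Ground-1 and Ground-2, 0.11 for Ground-2 and Space-2, 0.13 for Ground-3 and Space-1, and 0.15 for Ground-1 with each of Space-3 and Space-2. The largest was 0.45, for Ground-3 and Space-3. Over all tested genes Ground-1 and Space-3 were the most alike (0.14).

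For the 3 genes whose log2 CPM spanned at least 0.5, the tested genes of most similar profile were found by the root mean square difference of centred log2 CPM over the 6 libraries. They were Exoc3l2 (0.026), Cdh23 (0.033) and Kcnh2 (0.035) for Hmox1, whose own range was 0.66. For Nqo1 (range 0.91) they were Atg10 (0.079), Apopt1 (0.088) and Adam8 (0.089), and for Slc7a11 (range 1.96) Gm12932, Ccdc13 and Ndst3 (0.13 to 0.14). None of the other members was among them. With only 3 genes named for each, that says little about whether the members vary together. 

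The wider pathway was read from lists of related genes. Of 127 listed genes in 8 partly overlapping lists, 116 were tested, and 0 rose and 0 fell at an adjusted p under 0.05 in edgeR, with 0 at an unadjusted p under 0.05 (also 0 of these in DESeq2 and limma-voom). By sign 77 were lower and 39 higher in Space, with a median log2 fold change of -0.022 beside -0.0020 for all genes. With total counts 48 were lower and the median was 0.013 beside 0.033 for all genes. The balance of signs thus turned with the scaling, while the median of the lists stayed below that of all genes. The counts by sign below are for TMM, with those for total counts beside them, and values of named genes are group means ± SD (n = 3), Ground first. The groups did not overlap in 4 of the 116, with 3 lower and 1 higher in Space, beside 1.98% and 1.61% of all genes.

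Of the 18 partners and regulators of Nrf2, all were tested, 8 were lower (2 with total counts) and 10 higher in Space, and the median log2 fold change was 0.0099. Crebbp, a coactivator, did not overlap between groups (297 ± 6.75 and 313 ± 6.35 CPM, log2 fold change 0.073). Nfe2l3, an Nrf2 relative, had the smallest p (3.45 ± 0.64 and 2.59 ± 0.78 CPM, log2 fold change -0.41, unadjusted p = 0.184 in edgeR). Sqstm1, whose protein binds Keap1, had the highest level per exon length (95.8 CPM per kb).

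Of 24 genes of glutathione use and turnover, 22 were tested, 14 of them lower in Space (7 with total counts, median -0.021). The smallest p belonged to Lap3, an aminopeptidase (124 ± 4.41 and 129 ± 0.86 CPM), and the highest level per exon length to Slc3a2. Among 25 glutathione S-transferase genes 19 were tested, 14 of them lower in Space (12 with total counts, median -0.097, the lowest of the 8 lists). Gstt3 did not overlap between groups (10.02 ± 1.22 and 8.72 ± 0.025 CPM, log2 fold change -0.20), and Gstm5 had the highest level per exon length (71.4 ± 3.93 and 70.5 ± 3.62 CPM). Several transferase genes are near-identical copies, so counts of the Gstm and Gstp members are uncertain.

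Genes of NADPH supply had a median of -0.0026, with 5 of 10 tested lower in Space (3 with total counts). Me1, malic enzyme, had the smallest p (31.9 ± 2.47 and 29.5 ± 1.72 CPM), and Taldo1, transaldolase, the highest level per exon length (205 ± 3.34 and 201 ± 1.70 CPM). In the thioredoxin system 8 of 11 were lower (5 with total counts, median -0.022). Txn2, mitochondrial thioredoxin, had the smallest p and did not overlap between groups (78.4 ± 1.92 and 75.1 ± 1.03 CPM, log2 fold change -0.061), and Txnip, the thioredoxin-binding inhibitor, had the highest level per exon length (322 ± 25.9 and 321 ± 25.1 CPM).

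Of 12 haem and iron genes, 8 were lower (6 with total counts, median -0.041). Fech, the last enzyme of haem synthesis, did not overlap between groups (30.8 ± 0.15 and 29.3 ± 1.28 CPM, log2 fold change -0.069), and Flvcr1, a haem exporter, had the smallest p (4.53 ± 1.10 and 3.54 ± 0.44 CPM, log2 fold change -0.36). Ftl1, ferritin light chain, had the highest level per exon length (883 ± 164 and 849 ± 126 CPM) and has processed copies in the genome that can take its reads.

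Among 13 tested of 15 other Nrf2 target genes, 11 were lower (8 with total counts, median -0.065), with the smallest p for Ugdh (16.5 ± 2.72 and 14.6 ± 2.17 CPM) and the highest level per exon length for Esd (111 ± 3.13 and 111 ± 6.99 CPM). In the Atf4 stress response list, which covers the other main regulator of Slc7a11, 10 of 13 were lower (6 with total counts, median -0.032). Ddit3 had the smallest p (5.19 ± 0.31 and 4.73 ± 0.38 CPM) and Slc7a5 the highest level per exon length (620 ± 89.7 and 637 ± 93.5 CPM).

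**Figure D5:**
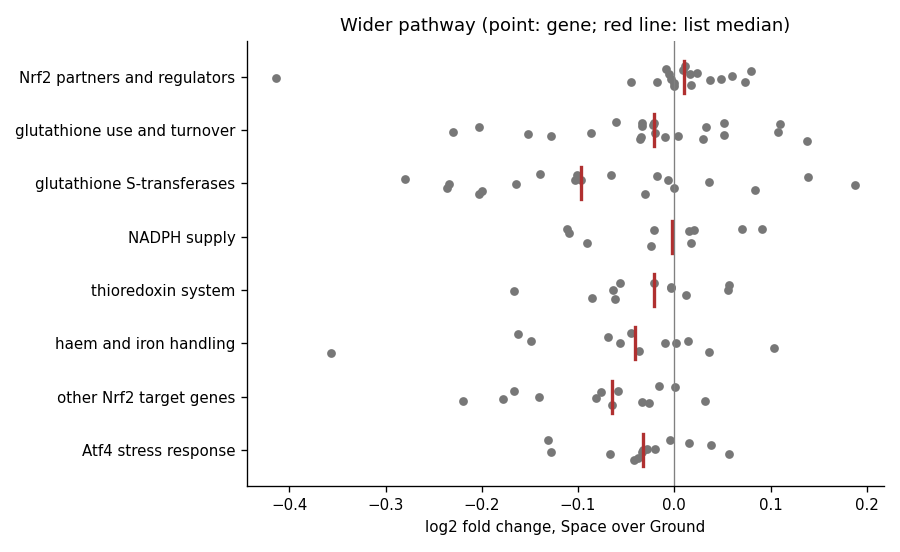
Log2 fold change of Space over Ground for the tested genes of the 8 pathway lists (points) with the median of each list (red line). Medians lie between -0.097 (glutathione S-transferases) and 0.0099 (partners and regulators of Nrf2), and 0 genes passed the threshold. With total counts in place of TMM the medians of 5 lists lie above 0, but the median of all genes then lies at 0.033. Only the list of Nrf2 partners and regulators (0.039) is above that value.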

How the data were processed

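RNA-seq was performed on 6 libraries of GS cells, 3 titled Space and 3 titled Ground. The authors deposited raw counts per gene. The study's methods name cutadapt for trimming, HISAT2 for alignment to mm10, and GENCODE M21 as annotation. The submitters' processing notes list cutadapt 4.1, HISAT2 2.2.1, HTSeq 2.0.2 and bcl2fastq 2.20. The labels and the methods differ in library kit, sequencer and read layout. The strand setting and the handling of reads shared between genes, which could change counts of overlapping or copied genes, are not given in the sources used here.

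Counts were fitted over the whole table with edgeR 4.0.16 in R 4.3.3 (filterByExpr by group, TMM, quasi-likelihood F test, 2-sided, no block, Benjamini-Hochberg adjustment over 15104 genes, threshold 0.05). The standard error is the log2 fold change divided by the square root of F, and its 95% interval uses the t distribution with the fit's degrees of freedom. Log2 CPM used a prior count of 2. Exon lengths and positions (counted from 1) are from GENCODE M21, which held 32235 of the 32285 identifiers. Sequences are RefSeq promoter windows of GRCm38.p6.

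The members and gene lists were chosen with earlier results of these data known. Genes named of each list were the one with the smallest p, the one with the highest level per exon length and up to 3 whose groups did not overlap. Alternatives were RLE scaling, total counts, TMM without mitochondrial genes, filters at 1 and at 10 counts, DESeq2 1.42.0, limma-voom (limma 3.58.1), a replicate block and leaving out libraries. The procedures were tested on simulated counts, drawn independently with a common dispersion. These held no variation shared across the groups, so they cannot show how well the p-values were calibrated here.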

Additional observations from a re-analysis of the deposited data

How the results depend on the processing

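The counts of 0 genes past the threshold, over all genes, over the 10 members and over the pathway lists, were obtained in 15 of 15 alternatives, which comprised 3 scalings, 2 filters, DESeq2, limma-voom, the replicate block and the fits without libraries. At an unadjusted p under 0.05 the members also gave 0 in all 15, with a smallest p of 0.128 in edgeR (Gclm, without Ground-1). The pathway lists gave 1 gene without Ground-1, 1 without Ground-2 and 0 in the other 13. With total counts, which moved the median of all genes to 0.033, the log2 fold changes of Nfe2l2 and Keap1 reversed to 0.015 and 0.025. In fits without 1 library, members whose groups did not overlap numbered from 0 to 1 (Srxn1 without Ground-3, Txnrd1 without Space-1), and members lower in Space from 4 (without Ground-3) to 8 of 10. These fits gave -0.038 to 0.0091 for Nfe2l2, -0.072 to 0.049 for Keap1, -0.20 to 0.0998 for Hmox1, -0.28 to 0.062 for Nqo1, -0.010 to 0.75 for Slc7a11, -0.089 to 0.099 for Gclc, -0.15 to 0.029 for Gclm, -0.033 to 0.046 for Gsr and -0.13 to 0.023 for Txnrd1. Only Srxn1 kept its sign in all 6, at -0.17 to -0.036. Over all members and alternatives 129 of 150 values kept their direction. Without Ground-2 and Space-2, an alternative chosen after seeing the data, 7 of 10 were lower, 0 passed and 0 did not overlap.

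The title numbers did not pair the libraries. The correlations of deviations from the group means of same-numbered libraries over the 1000 most variable genes were -0.48, 0.28 and -0.60. A fit with the replicate block called 0 genes, with 63 at an unadjusted p below 0.05 in edgeR against 92 without it. No member's direction changed. Slc7a11 rested on 9 to 45 counts per library and Nqo1 on 44 to 77.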

Other observations

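Several genes of the wider pathway varied more between libraries than any of the 10 members other than Slc7a11. They were chosen after their values were seen. Abcc3, an exporter of glutathione conjugates and bile acids, was at 8.11, 6.34 and 2.63 CPM in Ground-1, Ground-2 and Ground-3 and at 1.61, 5.28 and 8.60 CPM in Space-1, Space-2 and Space-3, a log2 range of 2.36. Ddit4, a stress-induced inhibitor of mTORC1 signalling, had 20.3, 36.8 and 60.8 CPM in Ground and 57.8, 35.5 and 19.3 CPM in Space, a log2 range of 1.65. Cbr3, a carbonyl reductase, had 4.40, 9.53 and 14.0 CPM in Ground and 12.3, 8.47 and 5.64 CPM in Space. Glrx2, mitochondrial glutaredoxin, had 12.8, 15.4 and 24.9 CPM in Ground and 27.5, 16.5 and 13.2 CPM in Space. In Ground-3 and Space-1, Abcc3 was at its lowest and Ddit4, Cbr3 and Glrx2 were at their highest, and the groups overlapped for all 4.

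Some genes of the glutathione S-transferase and NADPH supply lists were at or near 0. Nnt, the mitochondrial transhydrogenase, had 0, 2 and 5 counts in Ground and 2, 3 and 2 counts in Space. Gsta1 and Gstp3 had 0 counts in every library, but how reads shared with related transferase genes were handled is not given.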
